A study of Mus musculus with 8 samples.

Results

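The genes described here are the nucleoporins, which build the nuclear pore, and the transport receptors that carry cargo through it. They were found by name: every symbol in both count tables that begins with Nup, Ipo, Xpo or Tnpo followed by a number, the symbols Kpna and Kpnb followed by a number, and Tpr and Ndc1, with Ranbp2 left out. This gave 44 of 24421 genes, 22 nucleoporins and 22 receptors. The family was chosen by its fold changes in both comparisons below, seen in an earlier pass over the same libraries. Its fold changes and counts of called genes are therefore a description of the members and support nothing beyond it.

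Polyadenylated RNA was sequenced from 8 libraries of mouse embryonic stem cells, all grown for 3 to 4 passages in 2i/LIF, which holds the cells in naive pluripotency. The Ubc9 experiment used the v6.5 line, with 2 Ubc9-depleted libraries taken after 72 hours of doxycycline and 2 Ubc9 wild-type control libraries. Ubc9 is the enzyme that attaches SUMO to proteins. The H1 experiment used lines from an earlier publication, with 2 libraries of triple-knockout cells lacking the linker histones H1.2, H1.3 and H1.4 (H1 TKO) and 2 wild-type control libraries. Not given in the labels are doxycycline in the Ubc9 controls, the number of clones behind each line, the age or sex of the source embryos, and separate cultures for replicate libraries. All p-values therefore measure only the spread between these libraries, which may be technical. The experiments used different library kits, so a difference between them cannot be told apart from the line or the kit. The experiments ask how gene expression responds to reduced SUMO conjugation and to loss of linker histones.

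The nuclear pore complex is a ring of many copies of each nucleoporin set into the nuclear envelope. Membrane-spanning nucleoporins anchor it, the inner ring and the outer ring (the Y complex) form its scaffold, and nucleoporins rich in phenylalanine-glycine (FG) repeats fill the channel. Filaments reach into the cytoplasm and a basket reaches into the nucleus. Receptors of the importin beta family bind cargo directly or through an importin alpha adaptor, pass along the FG repeats and release cargo where RanGTP is high, while exportins pick up cargo together with RanGTP. The heterodimer of Kpnb1 and Ipo7 imports linker histones, and Ipo13 imports Ubc9, so both experiments remove a cargo of these receptors. SUMO itself reaches the pore through Rangap1, which docks at the cytoplasmic face once it carries SUMO.

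Promoter sequences from RefSeq (GRCm38.p6) were matched to 35 of the 44 members. Each entry spans 250 bases before the start site to 50 after it. Those of Nup205 and Nup210, the members that fell in H1 TKO cells, and of Nup153 and Xpo5, which with Nup210 were still called lower after Ubc9 depletion when libraries were scaled by their totals, are shown. Only the bases before the start site that no GENCODE exon covers are printed, 5′ to 3′ on the strand of the gene. Capitals mark matches, on either strand, to the motifs listed after the sequences.
Nup205, chr6:35177366-35177420, plus strand: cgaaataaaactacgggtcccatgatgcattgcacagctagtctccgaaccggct
Nup210, chr6:91116830-91117076, minus strand: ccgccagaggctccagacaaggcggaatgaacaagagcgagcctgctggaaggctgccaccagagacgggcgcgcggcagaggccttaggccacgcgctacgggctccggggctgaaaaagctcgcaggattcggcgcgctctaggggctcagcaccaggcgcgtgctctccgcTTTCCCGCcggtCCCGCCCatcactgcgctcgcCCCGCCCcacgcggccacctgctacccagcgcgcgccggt
Nup153, chr13:46727941-46728099, minus strand: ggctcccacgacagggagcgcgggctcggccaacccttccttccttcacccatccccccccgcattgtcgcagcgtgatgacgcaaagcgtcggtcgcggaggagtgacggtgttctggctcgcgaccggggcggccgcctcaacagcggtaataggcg
Xpo5, chr17:46202646-46202781, plus strand: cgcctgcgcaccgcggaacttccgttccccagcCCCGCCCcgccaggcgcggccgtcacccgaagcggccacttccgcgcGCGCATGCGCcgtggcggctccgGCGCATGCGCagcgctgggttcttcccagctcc

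The Nup210 stretch holds an E2F motif (TTTCCCGC) followed by 2 copies of the SP/KLF motif (GGGCGGG), both read on the opposite strand. The Xpo5 stretch holds an SP/KLF motif and, further on, the NRF1 core (GCATGCGC), whose matches on both strands overlap in each capital run. No searched motif lies in the Nup205 or Nup153 stretch, although the full windows of both hold an SP/KLF motif outside the printed part. In the full windows, the members' promoters had a median GC content of 64% and 27 CpG dinucleotides, against 52.7% and 7 over all 27025 RefSeq genes with an entry, which include tissue-specific and non-coding genes. The lowest of the members was Kpna7, with 46.7% GC and 4 CpG dinucleotides. The highest was Ipo5, with 80.7% GC and 47 CpG dinucleotides.

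Motif matches were counted in the same windows on both strands, and a match is a description of letters only. SP/KLF motifs were in 19 of 35 member promoters (54.3%, against 25.8% of all promoters), and the letters CCAAT were in 20 (57.1%, against 37.9%). The ETS motif (CCGGAAG) was in 6, those of Ipo4, Nup107, Nup155, Nup37, Nup54 and Tnpo3 (17.1%, against 9.12%). The E-box (CACGTG) was also in 6 (17.1%, against 7.24%). The NRF1 core was in 4, those of Nup107, Nup50, Nup62 and Xpo5 (11.4%, against 2.8%), and the YY1 core (AAGATGGC) in 4, those of Nup188, Nup205, Nup50 and Nup88 (11.4%, against 2.88%). An E2F motif (TTTCCCGC, TTTGGCGC, TTTCGCGC or TTTGCCGC) was in 2, Ipo7 and Nup210 (5.71%, against 2.32%). The letters TATAAA were in 2, Ipo7 and Nup160 (5.71%, against 14.2%), and the ZBTB33 core (CTCGCGAG) was in 0 of 35, against 0.958% of all promoters. The shares were not adjusted for GC content.

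Library totals ranged from 44441713 to 102780141 counts, at which 3 counts correspond to 0.03 to 0.0685 CPM (counts scaled to library size with TMM factors). Hist1h1c, Hist1h1d and Hist1h1e had 0 counts in both H1 TKO libraries and between 1.64 and 4.48 CPM in the controls. Each of 10 embryonic stem cell markers reached 1 CPM in both experiments, and their summed level was 5375 to 5445 CPM in Ubc9-depleted and 5720.1 to 5956 CPM in control libraries. In the H1 experiment this sum was 11927 to 12051 CPM in the TKO and 6636 to 7228 CPM in the control libraries, and Tfcp2l1, the only 1 of the 10 called there, made up most of the gap (5416 and 4914 against 1778 and 1611 CPM). All 9 markers of 2-cell-like cells were called higher after Ubc9 depletion (sums of 544 to 552 against 21 to 23.3 CPM) and 8 of 9 in H1 TKO cells (101 to 105 against 4.38 to 7.63 CPM). Of 10 fibroblast markers 7 were called higher after Ubc9 depletion (69.1 to 70.6 against 38.2 to 39.5 CPM). In the H1 experiment their sums were 13.4 to 14.8 CPM in TKO and 20.8 to 31.6 CPM in control libraries, 2 of 5 tested were called lower and Postn was at 0 in all 4 libraries. Of 9 primitive endoderm markers 8 were tested after Ubc9 depletion, of which 5 (Gata6, Sox17, Foxa2, Dab2 and Cubn) were called higher and 1 (Lama1) lower. Their sums were 62.9 to 63.5 against 74.8 to 84.1 CPM. Lama1 made up most of these sums (34.7 and 41.3 against 70.8 and 61.3 CPM), so the sums follow Lama1 and not the 5 markers called higher. In H1 TKO cells 1 of 8, Dab2, was called higher (35.3 to 35.5 against 38.9 to 41.3 CPM). Of 6 neural markers tested 1 was called higher and 1 lower after Ubc9 depletion, and 2 lower in H1 TKO cells. Among blood markers Kit was called lower in both experiments. The globin genes Hba-a1 and Hbb-bt were at 0 in every library. The part of these other cell states in the members' values was not tested, and in bulk RNA fewer cells of a kind and less RNA per cell cannot be told apart.

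Among the members, Ubc9-depleted library 1 and H1 control library 1 differed most from the other library of their group. Ubc9-depleted library 1 was below library 2 in 40 of 44 members, with a median log2 ratio of -0.14, against -0.13 over genes of like level and 0.02 over all genes. It had counts on 23462 genes, against 18584 to 19591 in the other libraries of that experiment, and 3762 of 16499 genes were more than 1.5-fold higher in it than in library 2 and 111 lower. H1 control library 1 was more than 1.5-fold above library 2 in 9 members and more than 1.5-fold below it in 2, of 43, beside 310 and 296 of 2362 genes of like level and 2931 and 2863 of 14800 genes. By contrast, the H1 TKO libraries differed by that much in 1 of 43. Xpo1 (599.6 and 292 CPM), Ipo7 (375 and 156 CPM), Kpna3 (215 and 112 CPM), Tpr (316 and 177 CPM) and Xpo4 (124 and 71.4 CPM) showed this split between H1 control libraries 1 and 2.

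Levels were compared between genes as CPM per kilobase of GENCODE exon in the control libraries. Kpnb1, the importin beta that serves most classical import, was the highest member at 258 ± 15.4 CPM per kb in the Ubc9 controls (mean ± SD, n = 2 libraries here and below) and 138 ± 16.9 in the H1 controls. Below it in the Ubc9 controls came Xpo1, the main exportin for leucine-rich export signals, at 159 ± 13.9, Ipo5, which imports ribosomal proteins and histones, at 145 ± 1.38, and Tpr, the filament protein of the basket, at 129.6 ± 5.18 CPM per kb. The values of Xpo1 (149 and 168 CPM per kb) and Ipo5 (146 and 144) did not overlap between the Ubc9 control libraries, though the lower Xpo1 value lay close to both of Ipo5. Tpr was at 23.4 ± 9.35 CPM per kb in the H1 controls.

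At the other end, Kpna7, an importin alpha of the oocyte and early embryo, lay at 0.0285 ± 0.0108 CPM per kb in the Ubc9 controls, and Nup210l, a relative of Nup210 known from the testis, at 1.42 ± 0.103. Between these extremes the members ran continuously, with a median of 22.1 CPM per kb in the Ubc9 controls and 27.7 in the H1 controls. Ipo13 was among the lowest import receptors, at 3.33 ± 0.18 and 6.44 ± 2.32 CPM per kb in the Ubc9 and H1 controls. Exons of Ipo4 overlapped those of Gm49378 on the same strand over 55.3% of their length, and exons of Tnpo2 overlapped A230103J11Rik on the opposite strand over 10.6%. For the other members no single gene overlapped more than 7.88%. Since neither the annotation nor the strand setting of the counting is given in the sources used here, the values of Ipo4 and Tnpo2 are uncertain. Between Ipo4 and Tnpo2, the strand setting bears only on Tnpo2, and no counted gene has the name Gm49378. The strand setting also bears on smaller overlaps on the opposite strand. Among these were Nup188 with Gm14471 (7.88%), Kpnb1 with Gm11583 (7.07%), and Nup133 with Gm29773 (6.56%) and Gm45890 (3.81%).

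**Figure D1:**
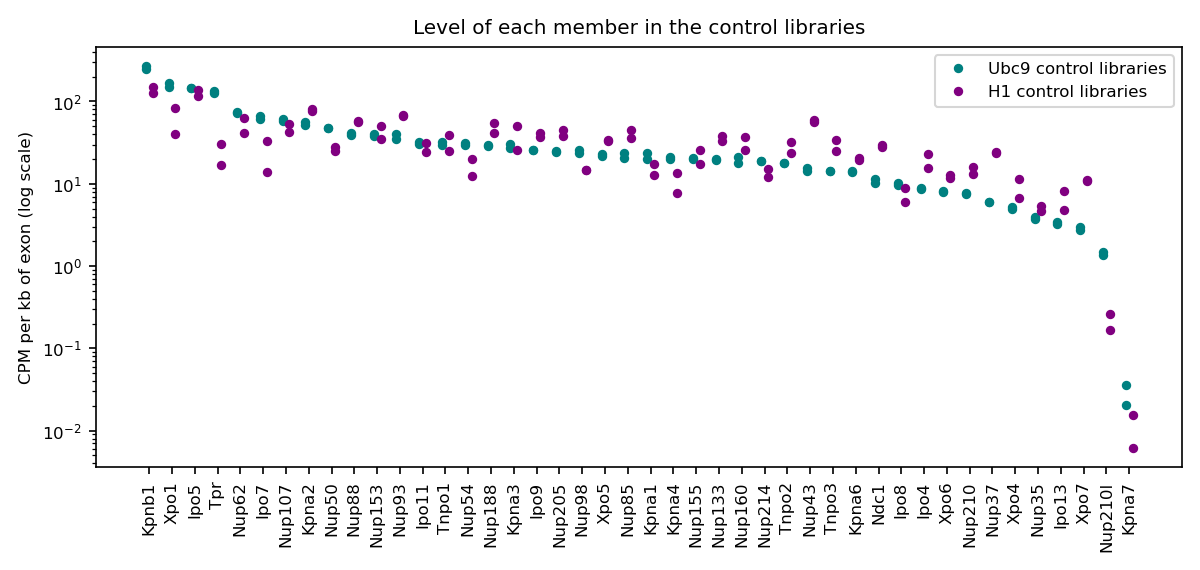
Level of each of the 44 members in the control libraries, in CPM per kb of exon on a log scale. Each point is 1 control library, teal for the Ubc9 and purple for the H1 experiment; Kpnb1 stands highest and Kpna7 lowest in both.

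After Ubc9 depletion most members were slightly lower and none was called higher. Of 44 tested, 17 fell and 0 rose at an adjusted p under 0.05 (quasi-likelihood test of edgeR, Benjamini-Hochberg adjusted over 16499 genes), 10 of them nucleoporins and 7 receptors. That is 38.6% of members, beside 15.0% of all genes tested called lower and 27.5% of 6198 genes of like level, defined as non-members whose mean level lay between the 10th and 90th percentiles of the members. Of all genes 21.1% were called higher, and of genes of like level 7.21%. At an unadjusted p under 0.05, 0 members were higher, and DESeq2 called 0 higher and 25 lower. By DESeq2 31.6% of genes of like level were lower and 6.02% higher, and 15.8% and 18.6% of all genes. DESeq2 shared 16 of the 17 calls, left out Nup35 and added Ipo5, Ipo11, Kpna3, Kpnb1, Nup98, Nup214, Tnpo1, Tpr and Xpo7. A gene is called here and below where edgeR calls it, unless DESeq2 is named. The median log2 fold change of the members was -0.28 (quartiles -0.35 and -0.20), against 0.06 over all genes and -0.16 over genes of like level (quartiles -0.32 and 0.01).

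In 38 members both depleted libraries lay below both controls and in 6 the groups overlapped. Both depleted libraries lay below both controls in 32.2% of all genes tested and in 55.6% of genes of like level. With Ubc9 control library 1 or 2 left out the members' median was -0.33 and -0.27, against -0.19 and -0.18 over genes of like level. In a fit of all 8 libraries edgeR called 0 members lower (7 at an unadjusted p under 0.05). That fit called 2.85% of all genes and 4.94% of genes of like level lower. Without depleted library 1 the count was 12, beside 15.3% of all genes and 23.5% of genes of like level called lower. Without depleted library 2 it was 34 lower and 1 higher, but then 22.9% of all genes and 54.9% of genes of like level were also called lower. Scaling by library totals raised the all-gene median to 0.25, from 0.06, and that of the members to -0.08, with 34 of 44 below 0. Of the members 3 were then called lower and 2 (Kpna4 and Nup62) higher. With that scaling 12.9% of genes of like level were called lower and 18.7% higher, beside 6.57% and 24.1% of all genes. The gap between the members' median and that of genes of like level was -0.11 with either scaling.

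**Figure D2:**
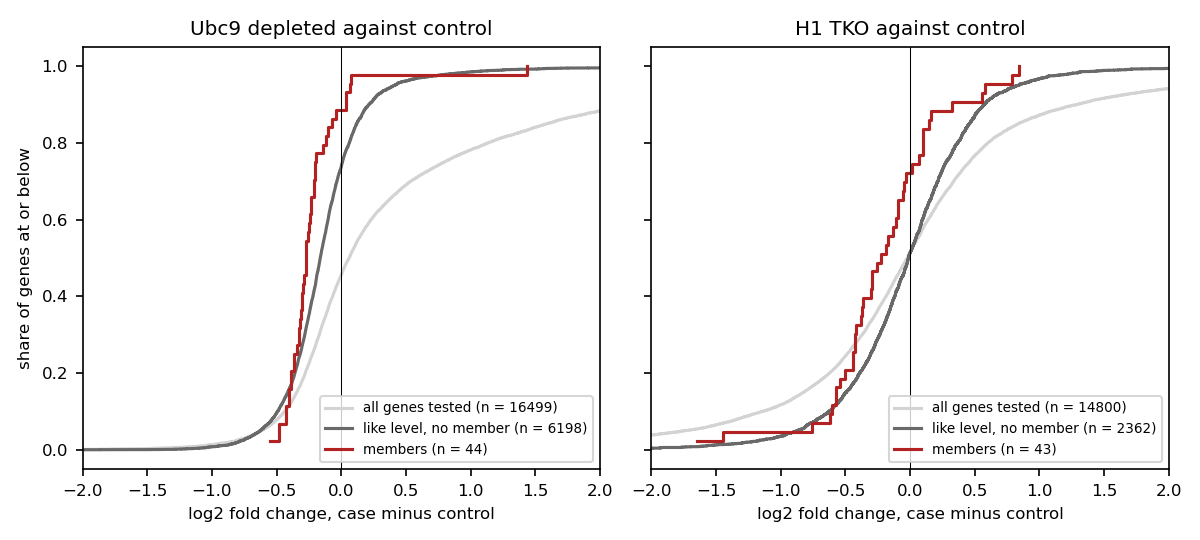
Share of genes at or below each log2 fold change, for all genes tested, genes of like level and the members, after Ubc9 depletion (left) and in H1 TKO cells (right). With TMM scaling 39 of 44 members lie below 0 in the Ubc9 comparison and 31 of 43 in the H1 comparison. Of genes of like level 73.7% and 51.4% lie below 0, and of all genes 45.5% and 51.5%. The members' curve is steeper than that of all genes in the Ubc9 panel.

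The membrane-spanning nucleoporins fell in 3 of 3 cases after Ubc9 depletion. Counts by role, here and below, cover only 2 to 11 genes each. Of genes of like level 27.5% were called lower, and 55.6% had both depleted libraries below both controls. Nup210l measured 5.77 and 5.32 CPM in the depleted libraries against 8.54 and 7.71 CPM in the controls, a log2 fold change of -0.55 ± 0.15 (± SE, as for all log2 fold changes). Nup210, a glycoprotein of the pore membrane that is regulated during differentiation, measured 51.8 and 62.5 against 81.2 and 78.6 CPM, a log2 fold change of -0.48 ± 0.12 (adjusted p = 0.0022, edgeR). Ndc1, which anchors the pore in the envelope, measured 42.4 and 44.9 against 50.4 and 56.7 CPM and fell by 0.30 ± 0.11 on the log2 scale. In all 3 genes the groups did not overlap.

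Among 5 inner ring and linker nucleoporins 2 fell after Ubc9 depletion. Nup155, a scaffold protein next to the membrane, measured 175 and 192 against 238 and 243 CPM, a log2 fold change of -0.39 ± 0.12. Nup35 measured 11.2 and 8.66 against 12.5 and 13.1 CPM, a log2 fold change of -0.37 ± 0.13. Nup205 and Nup188, the large paralogous scaffold proteins of the inner ring, had log2 fold changes of -0.21 and -0.07 and were not called. Nup93, which holds the inner ring to the channel, measured 151 and 178 against 172 and 148 CPM, with a log2 fold change of 0.04 ± 0.13 and overlapping groups.

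In the outer ring, which seeds pore assembly on chromatin, 3 of 6 members fell after Ubc9 depletion. Nup133 measured 102 and 109 against 137 and 142 CPM, a log2 fold change of -0.40 ± 0.12, and Nup107 and Nup160 had log2 fold changes of -0.32 each. Nup37, Nup85 and Nup43 had log2 fold changes of -0.24, -0.24 and -0.20 and were not called. The highest of them, Nup43, measured 34 and 33.1 against 36.9 and 40.2 CPM. All 6 subunits had both depleted libraries below both controls.

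Of the 3 central FG nucleoporins edgeR called 0 after Ubc9 depletion (1 at an unadjusted p under 0.05, and 1 by DESeq2, Nup98 in both cases). Nup98, which is mobile and also binds genes inside the nucleus, measured 239 and 276 against 301 and 321 CPM, a log2 fold change of -0.28 ± 0.13. Nup54 had a log2 fold change of -0.14. Nup62, the main FG protein of the channel, measured 199 and 230.0 against 207 and 211 CPM, a log2 fold change of 0.04 ± 0.13 with overlapping groups.

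On the cytoplasmic face, Nup88 measured 237 and 279.9 against 316 and 340.3 CPM and fell by 0.35 ± 0.13 on the log2 scale after Ubc9 depletion. Nup214, its FG partner and a docking site for exportins, measured 145 and 156 against 185 and 183 CPM, a log2 fold change of -0.29 ± 0.12 that edgeR did not call, while DESeq2 and edgeR with a replicate block did. Both genes had separate groups. In the nuclear basket, Nup153, which tethers the basket to the pore, measured 187 and 212 against 271 and 285 CPM and fell by 0.48 ± 0.13 on the log2 scale (adjusted p = 0.0041, edgeR). Tpr measured 1068 and 1208 against 1399 and 1322 CPM, a log2 fold change of -0.26 ± 0.13. Nup50, a mobile basket protein that helps release importin alpha cargo, measured 192 and 213 against 232 and 233 CPM, a log2 fold change of -0.20 ± 0.13. Of the 3 basket genes edgeR called only Nup153, and DESeq2 called Nup153 and Tpr.

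Of 11 import receptors of the importin beta family 3 fell after Ubc9 depletion. Ipo7 measured 516 and 588 against 689.7 and 735 CPM, a log2 fold change of -0.37 ± 0.13. Ipo9, an importer of histones H2A and H2B, and Ipo8, a relative of Ipo7, had log2 fold changes of -0.32 and -0.31. Kpnb1 measured 1321 and 1435 against 1631 and 1775 CPM, a log2 fold change of -0.31 ± 0.13 that was not called (adjusted p = 0.067, edgeR). Both partners of the linker histone importer thus had separate groups, and their SEs overlapped.

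The other importers had smaller values after Ubc9 depletion. Ipo11, Ipo4 (an importer of histones H3 and H4), Tnpo1 (which imports RNA-binding proteins such as hnRNP A1) and Ipo5 had log2 fold changes of -0.30, -0.27, -0.25 and -0.24. Tnpo2, the close paralogue of Tnpo1, and Tnpo3, which imports SR splicing factors, had log2 fold changes of -0.12 and -0.04. Ipo13, the importer of Ubc9, measured 13.9 and 15.7 against 13.5 and 14.6 CPM, a log2 fold change of 0.08 ± 0.11, and its groups overlapped. It was the highest of the 11.

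Of 6 importin alpha adaptors, which read classical import signals, 2 fell after Ubc9 depletion. Kpna1 measured 133 and 146 against 171 and 202 CPM, a log2 fold change of -0.42 ± 0.13. Kpna2, the adaptor that is high in embryonic stem cells, measured 113 and 122 against 161 and 150.3 CPM, a log2 fold change of -0.40 ± 0.12. Kpna3, Kpna6 and Kpna4 had log2 fold changes of -0.28, -0.10 and 0.07. Kpna7 measured 0.43 and 0.0524 against 0.113 and 0.0652 CPM, that is 43, 4, 11 and 6 counts. It passed the filter on low counts through 1 library of each group, and its log2 fold change of 1.43 ± 1.18 was not called.

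Of 5 exportins 2 fell after Ubc9 depletion. Xpo5, which exports microRNA precursors, measured 112 and 117 against 151 and 157 CPM, a log2 fold change of -0.43 ± 0.12 (adjusted p = 0.0066, edgeR). Xpo4, which carries eIF5A out of and Sox2 into the nucleus, had a log2 fold change of -0.39. Xpo7, Xpo6 (the exporter of actin) and Xpo1 had log2 fold changes of -0.27, -0.21 and -0.20 and were not called by edgeR, while DESeq2 called Xpo7 lower. Xpo1 measured 919 and 1065 against 1068 and 1209 CPM, so that the nearest depleted and control libraries differed little. Nup153, Nup210 and Xpo5 kept their call in 7 of 10 alternative analyses each, and the other 14 called members in 3 to 6 of 10.

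**Figure D3:**
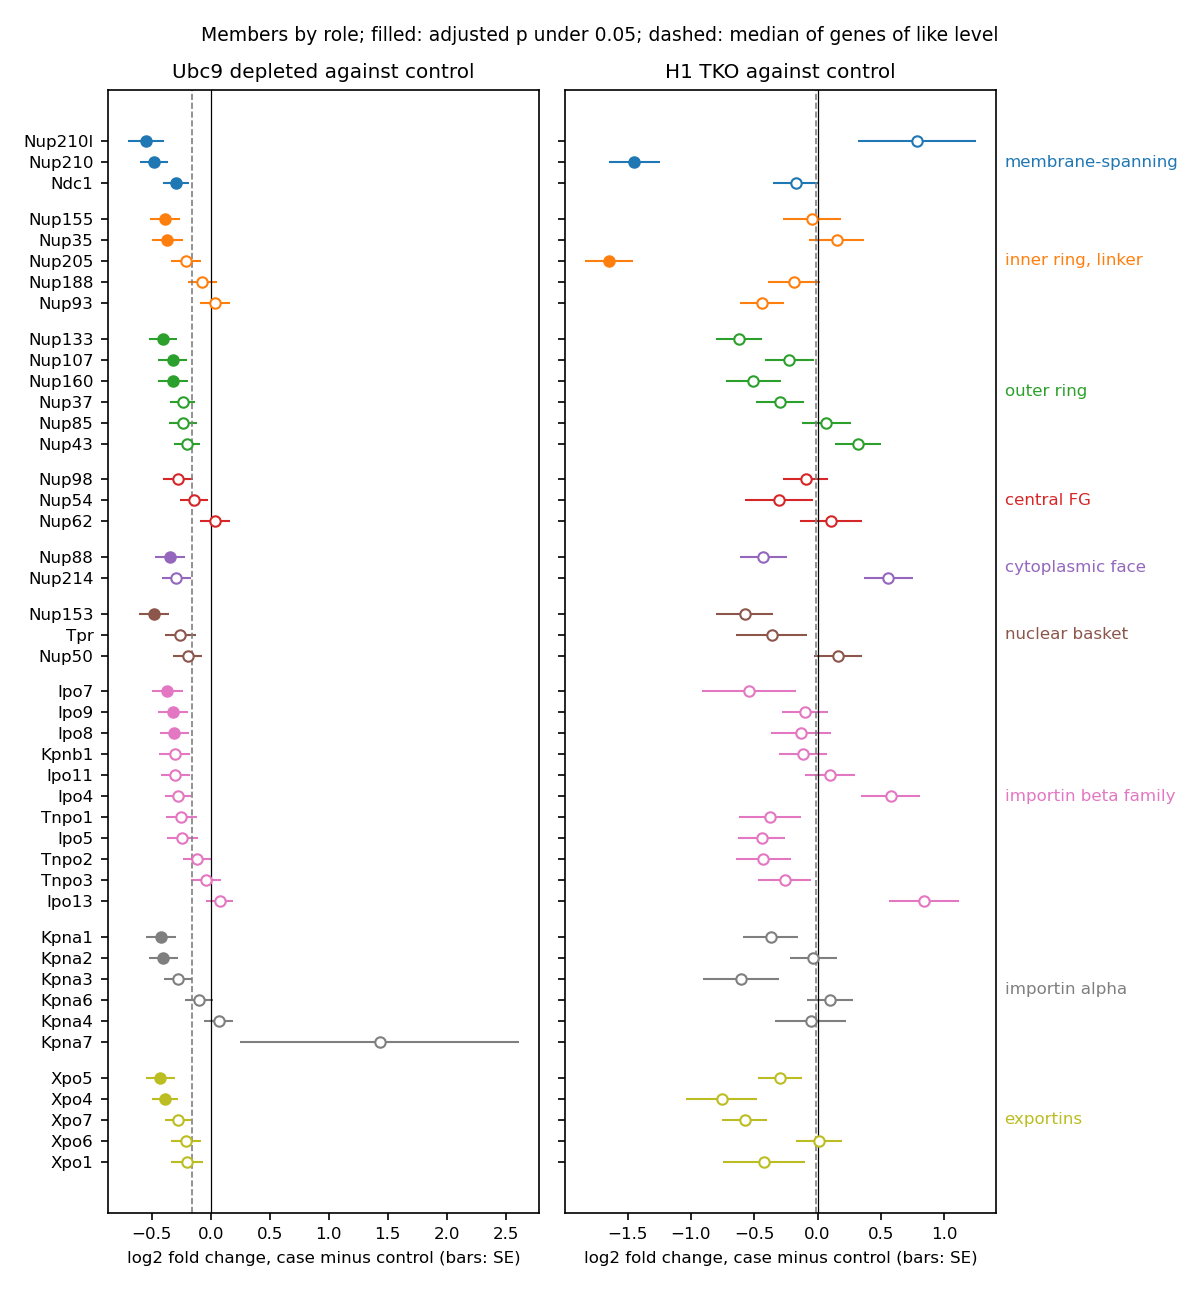
Log2 fold change of each member, case minus control, by role after Ubc9 depletion (left) and in H1 TKO cells (right); bars are SEs, filled points passed the test and the dashed line is the median of genes of like level. The 17 filled points on the left lie between -0.55 and -0.30, and on the right only Nup205 and Nup210 are filled.

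In H1 TKO cells 2 members fell and 0 rose of 43 tested, both of them large nucleoporins encoded on chromosome 6. Kpna7 was not tested, with 1 and 20 counts in the TKO and 3 and 1 in the control libraries. The 2 calls are 4.65% of the members, beside 8.43% of all 14800 genes and 6.18% of 2362 genes of like level called lower. Called higher were 8.59% of all genes and 6.01% of genes of like level. At an unadjusted p under 0.05 there were 8 lower and 3 higher members, and DESeq2 called 4 lower and 1 higher. DESeq2 called 9.02% of genes of like level lower and 8.47% higher, and 11.7% and 11.5% of all genes. Shares of other genes at an unadjusted p were not computed in either experiment. The median log2 fold change was -0.22 (quartiles -0.43 and 0.04), against -0.02 over all genes and -0.01 over genes of like level. Without the members on chromosomes 6 and 8 it was -0.14, beside 0.02 over non-members on the other chromosomes. In 18 members both TKO libraries lay below both controls, as in 30.6% of all genes and 28.2% of genes of like level. In 7 they lay above both controls (31.4% of all genes) and in 18 the groups overlapped.

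Much of this description rests on which H1 control is used. Without H1 control library 1 the members' median was -0.06, with 13 of 44 lower and 7 higher. In that fit 25.7% of genes of like level were called lower and 27.7% higher, so that far more genes of any kind were called. Without H1 control library 2 the median was -0.31, with 25 lower and 5 higher, beside 33.3% and 34.0% of genes of like level. The gap to genes of like level was -0.21 with all libraries, -0.08 without control library 1 and -0.32 without control library 2. Without TKO library 2 the call of Nup210 was lost (adjusted p = 0.097, edgeR), leaving 1.

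Nup205 measured 125 and 123 CPM in the TKO libraries against 420.4 and 358 CPM in the controls (124 ± 1.82 against 389 ± 44.5). Its log2 fold change was -1.65 ± 0.19 (adjusted p = 0.002, edgeR), and it passed in 10 of 10 alternative analyses, with adjusted p up to 0.025. Nup210 measured 58.8 and 53 against 138 and 167 CPM (55.9 ± 4.1 against 153 ± 20.7), a log2 fold change of -1.45 ± 0.20 (adjusted p = 0.0044, edgeR). It passed in 9 of 10 alternatives. No other member came near these values: the next lowest, Xpo4, had a log2 fold change of -0.76 ± 0.28.

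Nup205 lies at chr6:35177421-35247596 on the plus strand and Nup210 at chr6:91013068-91116829 on the minus strand (GRCm38). Genes around them that are not members were examined after the calls were seen. Within 2 Mb of Nup205, 14 of 16 tested neighbours had a log2 fold change below 0 in H1 TKO cells, 10 were called lower and 1 higher, and their median was -1.58. Between 2 and 5 Mb away the median was -0.43, with 11 of 39 called lower, and between 5 and 10 Mb it was -0.05. Beyond 5 Mb from Nup205 lower calls were few, with 2 of 41 genes at 5 to 10 Mb.

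Around Nup210 the lower stretch was wider. Within 2 Mb, 23 of 26 neighbours were below 0 in H1 TKO cells, 16 were called lower, with a median of -1.32. The medians were -1.35 over 48 genes at 2 to 5 Mb and -1.49 over 74 genes at 5 to 10 Mb, with 29 and 49 called lower. Over the 6 genes at 10 to 15 Mb the median was 0.08. Nup205 and Nup210 had log2 fold changes close to the medians of their own neighbours, so a change of each gene and a change of its stretch of the chromosome cannot be told apart.

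**Figure D4:**
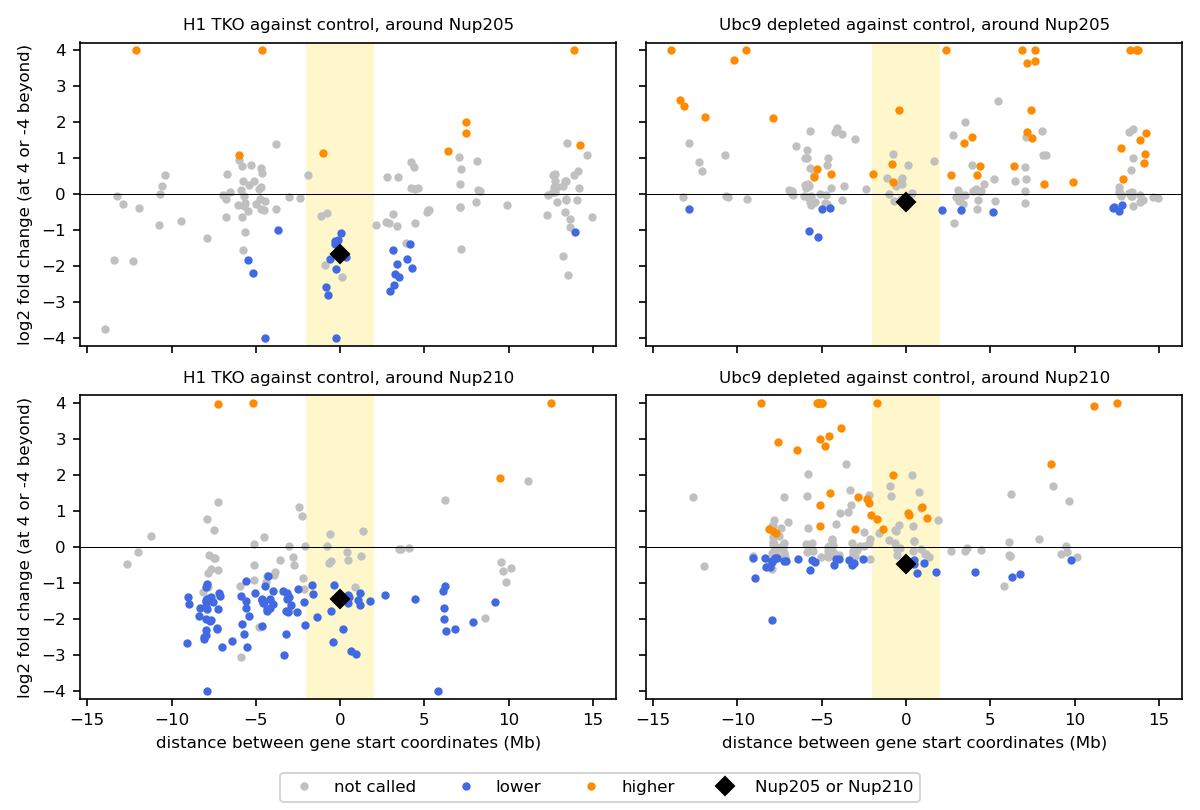
Log2 fold change of each tested gene against the distance of its start coordinate from that of Nup205 (top) or Nup210 (bottom), in Mb, in the H1 comparison (left) and the Ubc9 comparison (right); the band marks 2 Mb on either side and values beyond 4 or -4 are drawn there. In the H1 panels the neighbours sit near the diamonds at -1.65 and -1.45, and in the Ubc9 panels their medians within 2 Mb are 0.35 and 0.42.

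In the Ubc9 comparison the same neighbourhoods had median log2 fold changes of 0.35 (19 genes) around Nup205 and 0.42 (36 genes) around Nup210. Over chromosome 6 as a whole, 188 of 696 tested genes other than members were called lower in H1 TKO cells (27%), with a median of -0.44. Chromosome 8 had 179 of 782 called lower (22.9%), with a median of -0.53, and all other chromosomes together had 6.61% called lower and a median of 0.02. The 3 members on chromosome 8, Nup133, Nup93 and Tnpo2, had log2 fold changes of -0.62, -0.44 and -0.43, beside medians of -0.42, -0.62 and -0.53 over their neighbours within 2 Mb. On chromosome 6 but outside the low stretches, Tnpo3 had -0.26 and Ipo8 -0.13, beside neighbour medians of -0.09 and 0.06. Among the 36 tested members on other chromosomes edgeR called 0 lower (4 at an unadjusted p under 0.05, and Xpo4 by DESeq2).

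Apart from Nup205 and Nup210, edgeR called 0 ring, membrane and channel genes in H1 TKO cells, of which 2, Nup93 and Nup133, had an unadjusted p under 0.05, and DESeq2 called Nup133 lower. Ndc1 measured 127 and 125 against 145 and 137 CPM, a log2 fold change of -0.17 ± 0.18. Nup210l measured 1.64 and 2.61 against 1.49 and 0.97 CPM, a log2 fold change of 0.79 ± 0.47. Neither had a change of the size of that of Nup210. Nup155 and Nup188 had log2 fold changes of -0.05 and -0.19, and Nup35 measured 18.6 and 18.7 against 15.6 and 18 CPM, a log2 fold change of 0.15 ± 0.21. Of these 3 inner ring genes only Nup35 had groups that did not overlap. In the outer ring, Nup133 measured 163 and 163 against 235 and 265 CPM (-0.62 ± 0.18 on the log2 scale, adjusted p = 0.058 by edgeR) and was the lowest. Nup43 measured 176 and 192 against 151 and 144 CPM and was the highest at 0.32 ± 0.18. Nup160, Nup37, Nup107 and Nup85 had log2 fold changes of -0.51, -0.30, -0.22 and 0.07. The outer ring subunits, which are built into the pore together, thus ran from Nup133, with both TKO libraries below both controls, to Nup43, with both above. Neither was called by edgeR, and Nup133 lies on chromosome 8, where its neighbours within 2 Mb had a median of -0.42.

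Of the 3 central FG genes 0 were called in H1 TKO cells by edgeR, by DESeq2 or at an unadjusted p under 0.05. Nup54 measured 42.2 and 45.8 against 67.3 and 41.1 CPM, a log2 fold change of -0.30 ± 0.27, and its groups overlapped. Nup98 measured 170.3 and 177 against 185 and 186 CPM, a log2 fold change of -0.09 ± 0.18. Nup62 measured 153 and 169 against 118 and 182 CPM, a log2 fold change of 0.10 ± 0.24. On the cytoplasmic face the partners Nup88 and Nup214 stood on opposite sides. Nup88 measured 316 and 374 against 472 and 455 CPM, a log2 fold change of -0.43 ± 0.19, while Nup214 measured 198 and 188 against 117 and 144 CPM, a log2 fold change of 0.56 ± 0.20. The groups did not overlap in either gene, but edgeR and DESeq2 called 0 of them (1, Nup214, at an unadjusted p under 0.05).

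In the nuclear basket, Nup153 measured 208 and 195 CPM in H1 TKO against 353 and 247 CPM in control libraries, a log2 fold change of -0.58 ± 0.22. Tpr had -0.36 ± 0.28, with TKO libraries at 198 and 185 CPM between the controls at 316 and 177 CPM. Nup50 measured 137 and 155 against 124 and 138 CPM, a log2 fold change of 0.16 ± 0.19. Of these 3 genes edgeR and DESeq2 called 0 (1 at an unadjusted p under 0.05), and only Nup153 had separate groups.

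Import receptors ran both ways in H1 TKO cells. Of 11 tested edgeR called 0 (1 lower and 2 higher at an unadjusted p under 0.05), and DESeq2 called 1, Ipo13, higher. Ipo7 measured 195 and 169 against 375 and 156 CPM, a log2 fold change of -0.54 ± 0.37, and the gap between its controls was larger than that between groups. Kpnb1, its partner in linker histone import, measured 862 and 821 against 988 and 831 CPM, a log2 fold change of -0.11 ± 0.19. Ipo13 measured 48 and 49.1 against 20.2 and 34 CPM, a log2 fold change of 0.84 ± 0.28 (adjusted p = 0.081, edgeR), the highest of all members tested. Ipo4 had 0.58 and Ipo11 0.10, and the remaining receptors, Ipo5, Tnpo1 and Ipo9, had log2 fold changes of -0.44, -0.38 and -0.10. For both genes of the linker histone import heterodimer the TKO and control libraries overlapped.

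Of 5 importin alpha adaptors and 5 exportins edgeR called 0 in H1 TKO cells (0 and 2 lower at an unadjusted p under 0.05), and DESeq2 called Xpo4 lower. Kpna3 measured 108 and 107 against 215 and 112 CPM, a log2 fold change of -0.60 ± 0.30. Kpna6 measured 149 and 139 against 137 and 132 CPM and was the highest adaptor at 0.10 ± 0.18. Kpna2 measured 207 and 238 against 221 and 233 CPM, a log2 fold change of -0.03 ± 0.18, and Kpna1 and Kpna4 had -0.37 and -0.06. Kpna3 and Kpna1 had both TKO libraries below both controls, and Kpna6 had both above. Among exportins, Xpo4 measured 59.1 and 56.4 against 124 and 71.4 CPM, a log2 fold change of -0.76 ± 0.28. Xpo6 measured 209.9 and 206 against 198 and 214 CPM (0.01 ± 0.18), and Xpo1 347 and 319 against 599.6 and 292 CPM (-0.42 ± 0.32). Xpo7 and Xpo5 had log2 fold changes of -0.57 and -0.30, both with separate groups.

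**Figure D5:**
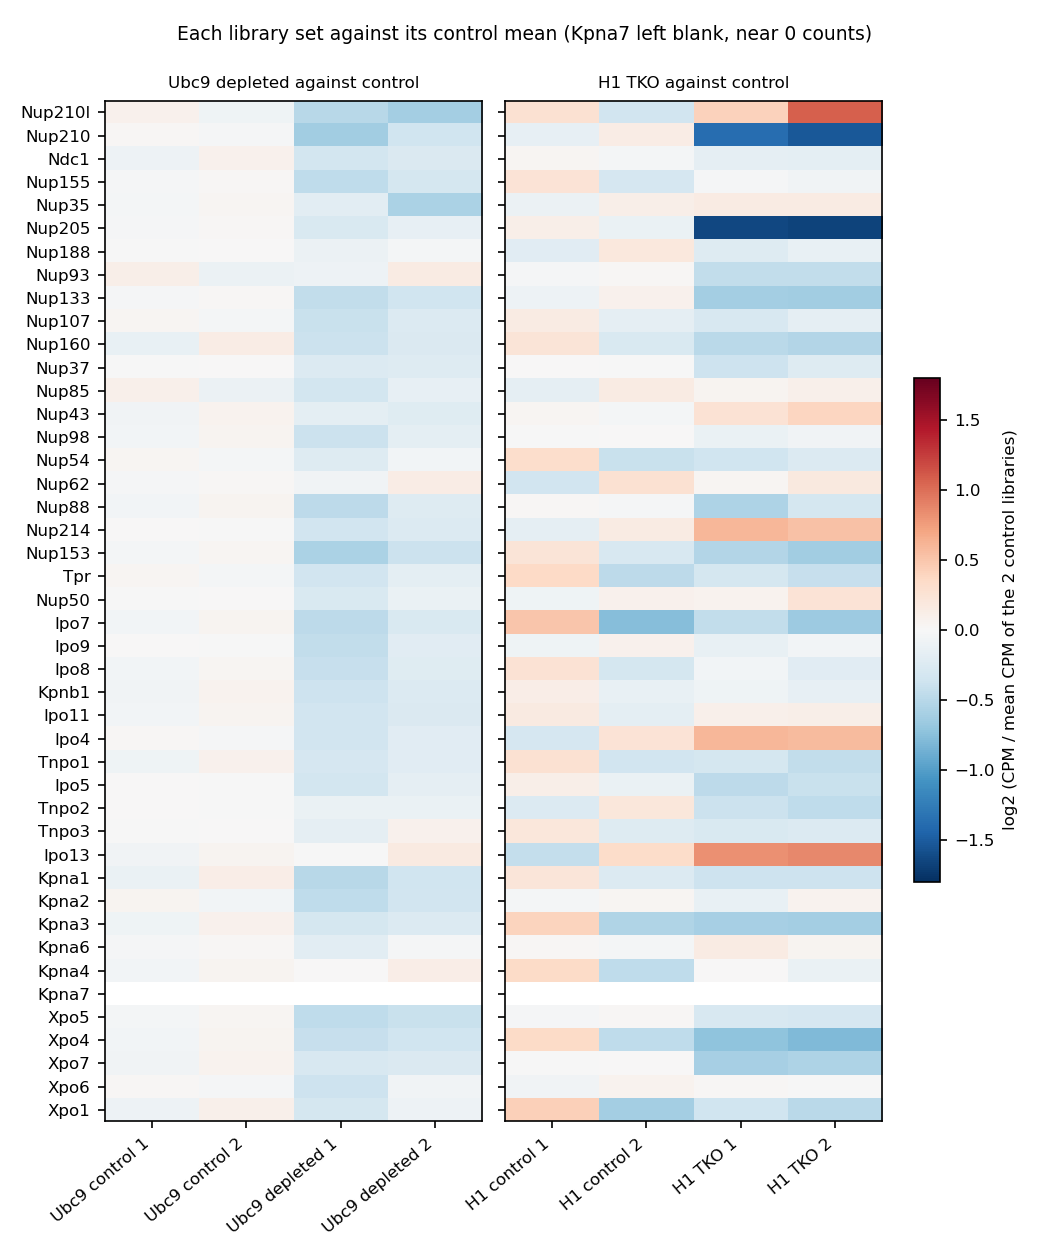
Each member in each library as log2 of its CPM over the mean CPM of the 2 control libraries of its experiment, blue for lower and red for higher. In the left panel both depleted columns are pale blue for 38 members, and in the right panel Nup205 and Nup210 are dark blue in both TKO libraries while the control columns differ from each other.

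The change after Ubc9 depletion was set against that in H1 TKO cells in a fit of all 8 libraries. The difference, Ubc9 minus H1, passed the test upwards for Nup205 (1.43 ± 0.23, adjusted p = 0.0026, edgeR) and Nup210 (0.95 ± 0.24), beside 8.08% of 16974 genes. It passed downwards for Nup214 (-0.87 ± 0.22) and Ipo4 (-0.87 ± 0.26), beside 6.43% of genes. Nup205 passed in 13 of 13 alternatives, Nup210 and Nup214 in 7 and Ipo4 in 6.

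Of the 43 members tested in both experiments, 29 had log2 fold changes below 0 in both and 10 only after Ubc9 depletion. Only in H1 TKO cells 2 were below 0, and 2 were above 0 in both. Of genes of like level 73.7% were below 0 after Ubc9 depletion and 51.4% in H1 TKO cells. Their share below 0 in both was not computed. Nup210 was called lower in both experiments, by 0.48 and 1.45 on the log2 scale. Nup205, called in H1 TKO cells, had -0.21 after Ubc9 depletion, and its difference passed the test above. Nup153 had -0.48 and -0.58, and Xpo4 -0.39 and -0.76, with differences of 0.09 ± 0.28 and 0.36 ± 0.33 that were not called.

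Other genes of nuclear transport were taken from lists of 33 genes that the naming rule does not reach. After Ubc9 depletion 9 fell (27.3%, beside 27.5% of genes of like level to the members) and 1 rose (3.03%, beside 7.21%). Their median log2 fold change was -0.15 (-0.16 over genes of like level). In H1 TKO cells 1 fell and 1 rose (3.03% each, beside 6.18% and 6.01% of genes of like level), with a median of 0.04. Of 8 genes listed under the Ran cycle 4 fell after Ubc9 depletion. Rcc1, the chromatin-bound exchange factor that makes RanGTP, measured 46.1 and 53.2 against 68.1 and 78.1 CPM, a log2 fold change of -0.56 ± 0.12. Rangap1, the GTPase activator and a main SUMO target, measured 193 and 236 against 284 and 268 CPM and fell by 0.36 ± 0.13 on the log2 scale. Rangrf fell by 0.49 ± 0.18. Rcc2, whose part in the Ran cycle was not checked here, fell by 0.36 ± 0.13 and was named after its values were seen.

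Of 8 messenger RNA export adaptors 3 fell after Ubc9 depletion, among them the helicase Ddx19a by 0.48 ± 0.12 and Alyref by 0.36 ± 0.12 on the log2 scale. Ncbp2 fell by 0.34 ± 0.12. Of 9 other nucleoporins 2 fell, Seh1l by 0.35 ± 0.12 and Nupl1 by 0.33 ± 0.11. Of 9 other transport receptors 1 was called, Ranbp6, which rose by 0.28 ± 0.11. Ncbp2, Seh1l, Nupl1 and Ranbp6 were also named after their values were seen. In H1 TKO cells Nutf2, which returns Ran to the nucleus, measured 23.1 and 21.6 against 12.8 and 10.4 CPM and rose by 0.94 ± 0.23 on the log2 scale. Ddx19b, on chromosome 8, measured 30.9 and 32 against 59.7 and 55.2 CPM and fell by 0.87 ± 0.20.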

How the data were processed

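Counts per gene of 8 libraries were used as the authors deposited them, in a table for each experiment. Per the submitters' processing notes, the tools named are cutadapt, STAR, HTSeq and DESeq2, on mm10, with no versions. The sources used here give neither the annotation nor the strand setting of the counting. Per the labels' protocols, polyA RNA was made into libraries with ScriptSeq v2 (Ubc9) or the Lexogen SENSE V2 kit (H1).

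The 4 libraries of each experiment made 1 fit in edgeR 4.0.16 (R 4.3.3), using filterByExpr (minimum count 10, minimum total 15), TMM factors and the quasi-likelihood F test, with Benjamini-Hochberg adjusted p under 0.05 called over 16499 (Ubc9) and 14800 (H1) genes. A fit of all 8 libraries gave the difference between experiments. CPM values use TMM-scaled library sizes, and intervals are SEs or SDs over 2 libraries. Positions and exon lengths come from GENCODE M21, in which 23376 symbols matched by name, 651 by an older name and 394 not at all. The script for the fits was tested on simulated data. DESeq2 1.42.0, RLE factors, library totals, no filter, all 8 libraries, a replicate block and leaving out each library were the alternatives. Counts and the median without members on chromosomes 6 and 8 and the neighbour windows were chosen after seeing the data.

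The members, gene lists and rules were chosen with earlier results of these data known. All members are named with their fold changes. CPM per library is given for the highest and lowest member of each role and comparison and for Kpnb1, Ipo7, Ipo13, Xpo1, Kpna2, Kpna7, Nup153, Nup98, Nup62 and Nup210, and the rule names up to 5 called other transport genes per comparison. Rcc2, Ncbp2, Seh1l, Nupl1 and Ranbp6, the rest of those called, were added after their values were seen. Protein sequences were not used here, and the check of the depleted gene's own level is not reported here.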

Additional observations from a re-analysis of the deposited data

How the results depend on the processing

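With 2 libraries a group, most calls did not hold in every fit with a library left out. The Ubc9 calls were lost with either control left out, where fewer genes of any kind were called. In those fits the members' median was -0.33 and -0.27, against -0.28 with all libraries. After Ubc9 depletion, leaving out a library in turn gave 0 to 34 members lower, 0 to 1 higher and medians of -0.42 to -0.23. Scaling by totals gave 3 lower and 2 higher, beside 12.9% and 18.7% of genes of like level, and a median of -0.085. The fit of all 8 libraries gave 0 lower, beside 4.94% of genes of like level. The gap to genes of like level was -0.33 when these spanned the lowest to the highest member, and -0.13 to -0.09 with a library left out. In the H1 comparison leaving out a library gave 1 to 25 lower, 0 to 7 higher, medians of -0.31 to -0.058 and gaps of -0.32 to -0.077. There totals gave 4 lower, no filter 4 lower and 1 higher, DESeq2 4 lower and 1 higher, all 8 libraries 5 lower and 3 higher, and the count without members on chromosomes 6 and 8 was 0 lower. For the difference between experiments RLE factors gave 1 higher (2.66% of genes of like level) and totals 0 lower (4.70%). No filter gave 4 lower (10.3%) and DESeq2 4 lower (16.6%). Leaving out a library gave members' medians of the difference of -0.29 to 0.04. Scaling by totals shifted the median of the difference over all genes from 0.10 to 0.40.

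The labels give no pairing, and same-numbered libraries deviated with correlations of -0.003 (Ubc9) and 0.156 (H1). A replicate block gave 20 lower and 0 higher after Ubc9 depletion, beside 30.5% and 7.52% of genes of like level. In the H1 comparison the block gave 3 lower and 1 higher (8.81% and 8.09%). For the difference it gave 4 lower and 2 higher (10.3% and 4.34%).

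With a library left out, the log2 fold change of Kpna4 in the H1 comparison ranged from -0.40 to 0.40, that of Nup155 from -0.30 to 0.27, and the difference of Ipo7 from -0.66 to 0.66. The ends came with H1 control library 1 or 2 left out, and the cause was not tested. A lone library was assumed to vary like the other group. Kpna7 had 1 to 43 counts a library, which limits its values.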
